A study of Mus musculus with 2 samples.

Results

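The pooled-only peaks are H3K79me2 peaks that were called when the reads of both replicates were pooled and that share no base with any peak of the authors' replicated list. Of 26832 pooled peaks on chromosomes 1 to 19 and X, 11630 (43.3%) met this rule, and they hold 12.6 of the 105.6 Mb under the pooled list (11.9%). The peaks were selected on the peak calls themselves, so their number, width, fold and support in each replicate are given as descriptions with no test. The rule left no borderline cases. Every one of the other 15202 pooled peaks has exactly the coordinates of a replicated peak, 0 overlapped one in part, and the pooled-only peak nearest to a replicated peak lay 51 bp from it.

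The cells, from C57BL/6J mice, were bone-marrow-derived macrophages, which are grown in culture from marrow progenitors, and they were left unstimulated. The 2 biological replicates form 1 group, each library was started from 10 ng of DNA, and no other genotype, treatment or time was included. A single donor identifier stands in the labels of both, sex and age are recorded for neither, and whether separate animals or cultures were used is not said. Depth is unknown because the files hold peaks and no read counts. The list of replicate 1 held 22960 peaks on these chromosomes and that of replicate 2 held 31576, and the replicated list held 15559, of which 357 share no base with a pooled peak. Of 10 defining macrophage genes, 9 were reached by the replicated list, by the rule given below. No defining gene of T and NK cells, B cells, dendritic cells or fibroblasts was reached by it or had a pooled-only base. Of 8 erythroid, megakaryocyte, mast cell and eosinophil genes, 1 was reached by the replicated list and 0 had a pooled-only base. The 1 defining gene of another cell type with a pooled-only base was the neutrophil gene Csf3r.

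H3K79me2 is the dimethylated form of lysine 79 in the core of histone H3. It is placed by the methyltransferase Dot1l, which travels with elongating RNA polymerase II, so the mark typically begins just after the start of a transcribed gene and thins out along its body. In macrophages it covers housekeeping genes and genes of the myeloid programme alike, and a gene with little or no transcription usually carries little of it.

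Starts of genes that only pooled-only peaks reached are shown first, because they fall into 2 kinds, rich and poor in CpG. For each kind the 2 genes with the highest deposited fold among those that overlap no other coding gene are printed (which leaves out Lpcat2), from 270 bases before to 30 bases after the 5′ end in GRCm38, read 5′ to 3′ on the gene's strand with every CpG in capitals.
Tent5c (chr3:100489295-100489594, minus strand): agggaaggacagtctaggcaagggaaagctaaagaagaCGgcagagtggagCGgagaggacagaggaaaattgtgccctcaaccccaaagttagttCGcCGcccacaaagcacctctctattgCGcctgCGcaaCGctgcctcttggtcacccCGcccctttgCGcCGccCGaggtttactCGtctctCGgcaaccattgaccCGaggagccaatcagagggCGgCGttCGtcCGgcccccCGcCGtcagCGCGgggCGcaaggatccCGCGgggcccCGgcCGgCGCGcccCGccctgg
Mxd1 (chr6:86669132-86669431, minus strand): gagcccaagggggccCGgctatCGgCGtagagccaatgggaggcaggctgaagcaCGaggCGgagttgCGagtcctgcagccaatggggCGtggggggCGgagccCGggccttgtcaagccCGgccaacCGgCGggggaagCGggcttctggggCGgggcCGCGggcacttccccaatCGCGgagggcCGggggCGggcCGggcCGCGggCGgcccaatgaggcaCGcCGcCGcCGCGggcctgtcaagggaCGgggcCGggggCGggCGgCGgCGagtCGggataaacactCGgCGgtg
1600014C10Rik (chr7:38182947-38183246, plus strand): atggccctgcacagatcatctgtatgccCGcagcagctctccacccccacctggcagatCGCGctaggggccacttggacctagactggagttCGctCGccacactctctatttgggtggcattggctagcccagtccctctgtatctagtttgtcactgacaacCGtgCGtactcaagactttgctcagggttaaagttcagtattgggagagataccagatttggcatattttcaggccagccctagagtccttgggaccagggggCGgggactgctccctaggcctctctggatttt
Ms4a4c (chr19:11404500-11404799, plus strand): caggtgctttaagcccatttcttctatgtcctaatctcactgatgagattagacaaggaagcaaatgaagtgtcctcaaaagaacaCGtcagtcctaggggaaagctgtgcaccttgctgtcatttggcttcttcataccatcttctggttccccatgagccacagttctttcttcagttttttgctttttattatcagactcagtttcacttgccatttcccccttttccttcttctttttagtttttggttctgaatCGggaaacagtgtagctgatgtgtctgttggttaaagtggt
The windows of Tent5c, a noncanonical poly(A) polymerase gene, and Mxd1, which encodes a partner of Max that opposes Myc, hold 30 and 38 CpGs. Those of 1600014C10Rik and of Ms4a4c, a gene of the four-pass membrane MS4A family, hold 8 and 2.

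The start of Xist is shown because the pooled-only peak of highest fold begins 169 bp downstream of it, and it is printed in the same way.
Xist (chrX:103483225-103483524, minus strand): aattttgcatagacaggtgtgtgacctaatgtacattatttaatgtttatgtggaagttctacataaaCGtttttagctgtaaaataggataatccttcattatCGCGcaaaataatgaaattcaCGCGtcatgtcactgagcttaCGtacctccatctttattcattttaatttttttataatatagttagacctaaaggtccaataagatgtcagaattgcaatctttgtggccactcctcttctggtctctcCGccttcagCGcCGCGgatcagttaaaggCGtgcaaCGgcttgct
This window holds 12 CpGs and has a GC content of 38.0%.

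The pooled-only peaks were narrow and of low fold. Their median width was 813 bp, with the 25th and 75th percentiles at 548 and 1273 bp and a range of 223 to 17592 bp, against a median of 3590 bp and a maximum of 123022 bp for the other pooled peaks. By width, 2316 were under 500 bp, 4945 from 500 to 1000 bp, 3145 from 1 to 2 kb, 1136 from 2 to 5 kb, 79 from 5 to 10 kb and 9 at least 10 kb wide. They made up 91.0% of all pooled peaks under 500 bp and 0.342% of those of 10 kb or more. The authors' fold over the control had a median of 3.017 (range 1.537 to 13.57) against 7.539 (maximum 38.02) for the others. When the pooled list was divided into 10 equal groups by fold, pooled-only peaks formed 91.0% of the lowest group, 0.186% of the ninth and 0% of the highest. The deposited q was over 0.05 for 11 of the 11630 peaks and over 0.01 for 53, so nearly all passed these thresholds in the pooled list.

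**Figure D1:**
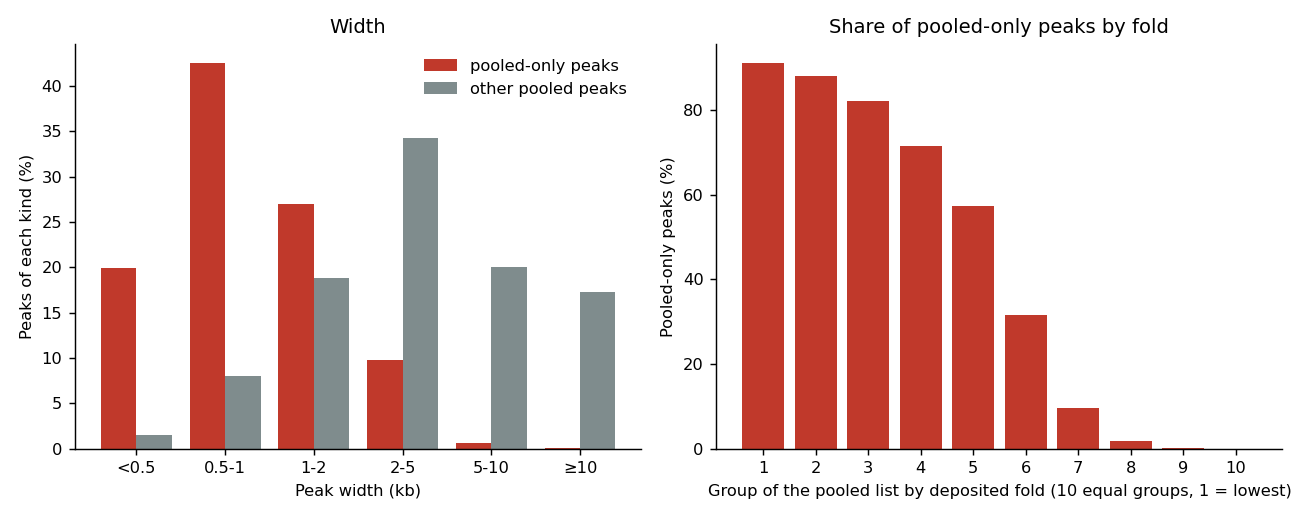
Left, width of pooled-only peaks (red) and of the other pooled peaks (grey), in percent of each kind by width in kb. Right, percent of peaks that are pooled-only in each of 10 equal groups of the pooled list ranked by the authors' fold. Pooled-only peaks make up 91.0% of the lowest group and 0.186% of the ninth.

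Replicate 2's own list held nearly all of these peaks and replicate 1's held almost none. A base of replicate 2's list lay in 11258 of the 11630 (96.8%) and a base of replicate 1's list in 47 (0.404%). In 11251 the support came from replicate 2 alone, in 40 from replicate 1 alone, in 7 from both and in 332 from neither. The 332 peaks called in neither replicate were the narrowest and lowest of these classes, with a median width of 455.5 bp and a median fold of 2.514. Among the other pooled peaks, 77.2% had a base in replicate 1's list, but 3307 (21.8%) also rested on replicate 2 alone. Those 3307 had a median width of 1543 bp and a median fold of 3.938, against 829 bp and 3.084 for the pooled-only peaks supported by replicate 2 alone. Peaks with no base in replicate 1's list thus stand in the replicated list too, and the sources used here do not give the rule by which the authors made that list.

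The same split was seen from the side of each replicate. In replicate 2's list, 10007 peaks (31.7%) shared a base with a pooled-only peak, with a median fold of 4.389 in that list. The 15158 (48.0%) that shared a base with a replicated peak had a median fold of 9.79, and the 7747 (24.5%) that met neither had 3.292, so peaks under pooled-only regions ranked between these groups. The groups overlap, because a peak that met both a replicated and a pooled-only peak is counted with each. In replicate 1's list, 22825 peaks (99.4%) shared a base with a replicated peak, 48 with a pooled-only peak and 94 with neither.

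The 7 peaks with bases in both replicates lay at Pcp4l1, Elf1, Fyb, Zfp948 and Foxp1, and at 2 sites outside coding genes. Elf1, an ETS factor gene, and Fyb, a gene for an adaptor of immune-cell adhesion, were otherwise broadly covered, by 92525 and 84496 bp of the replicated list. Their pooled-only peaks lay 151 and 56 bp from a replicated peak. The overlap with replicate 1 was partial in all 7, between 9.483% of the peak at Elf1 and 43.3% at 1 of the noncoding sites.

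By chromosome, pooled-only peaks formed between 38.6% (chromosome 5) and 47.4% (chromosome 13) of the pooled peaks on autosomes, 43.2% in all. On X they numbered 342 of 719 (47.6%), just above the autosomal range. Beside this, replicate 1's list held 0.521 peaks for each peak of replicate 2 on X and 0.733 on autosomes. Chromosome Y lies outside the rule, but replicate 1's list held 19 peaks there and replicate 2's 1. The part of these differences in the pooled-only peaks was not tested.

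Most pooled-only peaks lay in the interior of coding genes. Of the 11630, 10995 (94.5%) had a base in a coding gene, close to the 96.3% of the other pooled peaks, but they sat deeper. A base within 3 kb downstream of a gene's outermost 5′ end was found in 1424 (12.2%) against 45.2% of the others. A further 9571 (82.3%) lay deeper in a coding gene, 221 (1.90%) within 3 kb upstream of one, 173 (1.49%) in another kind of annotated gene and 241 (2.07%) in no annotated gene. When starts of every annotated coding transcript were counted, 22.4% of pooled-only and 57.6% of other pooled peaks touched the first 3 kb after one. In both counts width matters, because the other pooled peaks are wider (median 3590 against 813 bp) and a wider peak touches a window more often. The part of width was not tested. By midpoint, 14.99% of pooled-only and 21.7% of other pooled peaks with a coding host gene lay in its first 10%. Of the bases under pooled-only peaks, 87.2% were intronic, 7.83% exonic and 5.01% outside coding genes, against 89.5%, 8.08% and 2.46% for the other pooled peaks.

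Many pooled-only peaks were found past the end of a marked stretch or in a gap of one. Of the 10995 in a coding gene, 5158 (46.9%) lay downstream of all replicated bases of that gene, 3789 (34.5%) between them and 496 (4.51%) upstream of them. The remaining 1552 (14.1%) lay in genes with no replicated base, and these were wider, with a median of 901 bp against 799 bp for those downstream. Their midpoints were a median of 2914 bp from the 5′ end, against 25670 bp for those downstream and 39450 bp for those in gaps. Over the length of the gene, 14.99% of pooled-only midpoints fell in the first 10% of the gene and 3.38% in the last, against 21.7% and 2.14% for the other pooled peaks. The distance to the nearest replicated peak had a median of 2465 bp: 4199 peaks (36.1%) lay within 1 kb of one, 73.2% within 10 kb, and 1054 (9.06%) more than 50 kb away.

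Averaged over all 21755 coding genes, coverage by pooled-only peaks was highest 1000 to 1500 bp after the 5′ end, at 2.84% of bases, was 1.03% in the first 500 bp, and remained at 1.80% just before 20 kb. The replicated list was highest from 1500 to 2000 bp, at 29.2%, and had 10.6% in the first 500 bp and 13.2% before 20 kb. Pooled-only coverage thus had the dip at the start and the crest after it that the replicated list has, but declined less with distance: its last value was 1.80 against a crest of 2.84, and that of the replicated list 13.2 against 29.2. The rule itself bears on this contrast, because pooled-only peaks cannot cover replicated bases and have least room where that list is highest. Fewer genes are long enough for the last bin, 10068 against 20599 at the pooled-only crest.

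**Figure D2:**
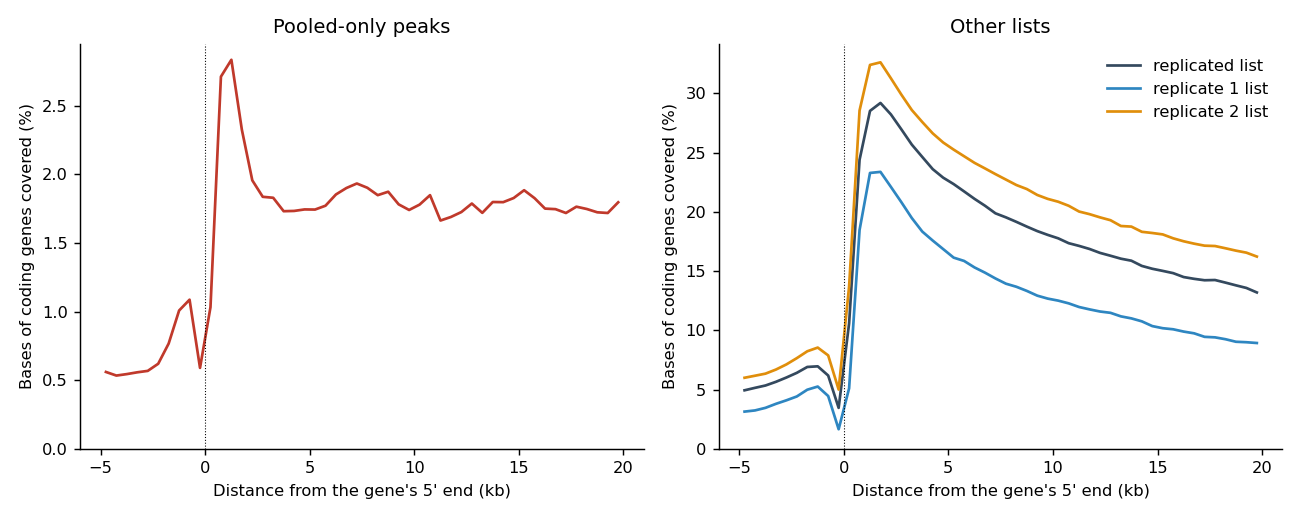
Percent of bases of 21755 coding genes covered in bins of 500 bp, by distance from the gene's 5′ end in kb (dotted line, 5′ end). Left, pooled-only peaks, with a crest of 2.84%. Right, the replicated list and the lists of both replicates, on a larger scale. Genes shorter than a distance are not counted in its bins.

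Pooled-only peaks were unevenly spread among genes. When each peak was assigned to the 1 coding gene with which it shares most bases, 3949 genes held at least 1 (4182 coding genes have any pooled-only base), 1964 of them 1, 1416 from 2 to 4, and 569 at least 5. Long genes led the count. Tmcc1 held 44, Arid1b, a subunit gene of the BAF remodelling complex, held 42, Zfand3 40, Uvrag, which encodes a Beclin partner in autophagy, 38, and Mitf, the melanocyte and osteoclast transcription factor gene, 32. Gm20388, with 65, is an annotated gene of 4434882 bp that runs across others. In Tmcc1 the pooled-only peaks added 50510 bp to 13378 bp of replicated cover, where replicate 1's list held 1205 bp and replicate 2's 93614 bp. In Arid1b they added 56933 bp to 188557 bp.

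The highest folds belonged to peaks that replicate 1's list did not hold at all. The highest, 13.57, belonged to a peak of 13566 bp at chrX:103469520-103483085, which covers the 5′ part of the gene of Xist, the noncoding RNA that coats the silenced X chromosome of female cells. Over the 22889 bp of Xist, replicate 1's list covered 0 bp, replicate 2's 14685 bp and the replicated list 0 bp. Part of Xist overlaps the annotated coding gene Gm26992, which had 13158 bp under replicate 2's list. Xist also lies opposite Tsix, and without strand the reads of these genes cannot be told apart.

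Next came Tmcc3 with a fold of 12.81, then Aif1, which encodes the actin-bundling macrophage protein Iba1, with 11.06, Il21r, the interleukin-21 receptor gene, with 10.92, and Lpcat2, an acyltransferase gene of platelet-activating factor synthesis, with 10.89. Sik1, a salt-inducible kinase gene, had 10.72, and 1600014C10Rik and Ms4a4c both 9.967. The lincRNA gene Gm13710 had 9.939 and Aoah, whose product removes acyl chains from bacterial lipopolysaccharide, 9.716. Each of these 10 peaks lay wholly under replicate 2's list and had 0 bases under replicate 1's. They were of 2 kinds by host gene. Il21r, Sik1 and Aoah carried replicated bases elsewhere (12687, 2985 and 15428 bp), whereas Tmcc3, Aif1, Lpcat2, 1600014C10Rik and Ms4a4c carried 0. The peak at Tmcc3, at chr10:94357100-94362638, lay 45151 bp inside the gene and was the first of 8 pooled-only peaks there. That at Lpcat2 was 1139843 bp from the nearest replicated peak. The peak at Aif1, 2976 bp wide, lay partly outside the gene, of which 1659 bp were under replicate 2's list.

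The widest pooled-only peak, of 17592 bp, lay at chr17:28268753-28286344 in Ppard, the gene of the fatty-acid-sensing nuclear receptor PPAR-delta. Replicated peaks lay in pieces between 221 and 35431 bp from the 5′ end of Ppard and the pooled-only peak followed them to 53645 bp, with 8559 bp of the gene under replicate 1's list and 52495 bp under replicate 2's. A start among the 9 annotated Ppard transcripts lies inside this peak, so an extension of the marked stretch and a mark from that start cannot be told apart. Tent5c came next with 14563 bp, 0 of its 37697 bp being in the list of replicate 1 and 15608 in that of replicate 2. After Xist came Bcor (11747 bp), a corepressor gene on X, Arhgef3 (11076 bp), Evl (10980 bp), an actin regulator gene that hosts Mir342, and Mertk (10588 bp), a receptor gene for engulfment of dying cells. Ric1 (10404 bp), the chemerin receptor gene Cmklr1 (10159 bp) and Ms4a4c (9436 bp) followed. All of these lay wholly in replicate 2's list and outside replicate 1's. The peaks at Bcor and Arhgef3 lay 3350 and 2204 bp downstream of the nearest start of a transcript of their gene, far inside its outermost 5′ end. The host gene had no replicated base in Tent5c, Bcor, Cmklr1 and Ms4a4c, and between 4387 bp (Arhgef3) and 32102 bp (Ppard) in the other coding hosts apart from that at Xist.

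**Figure D3:**
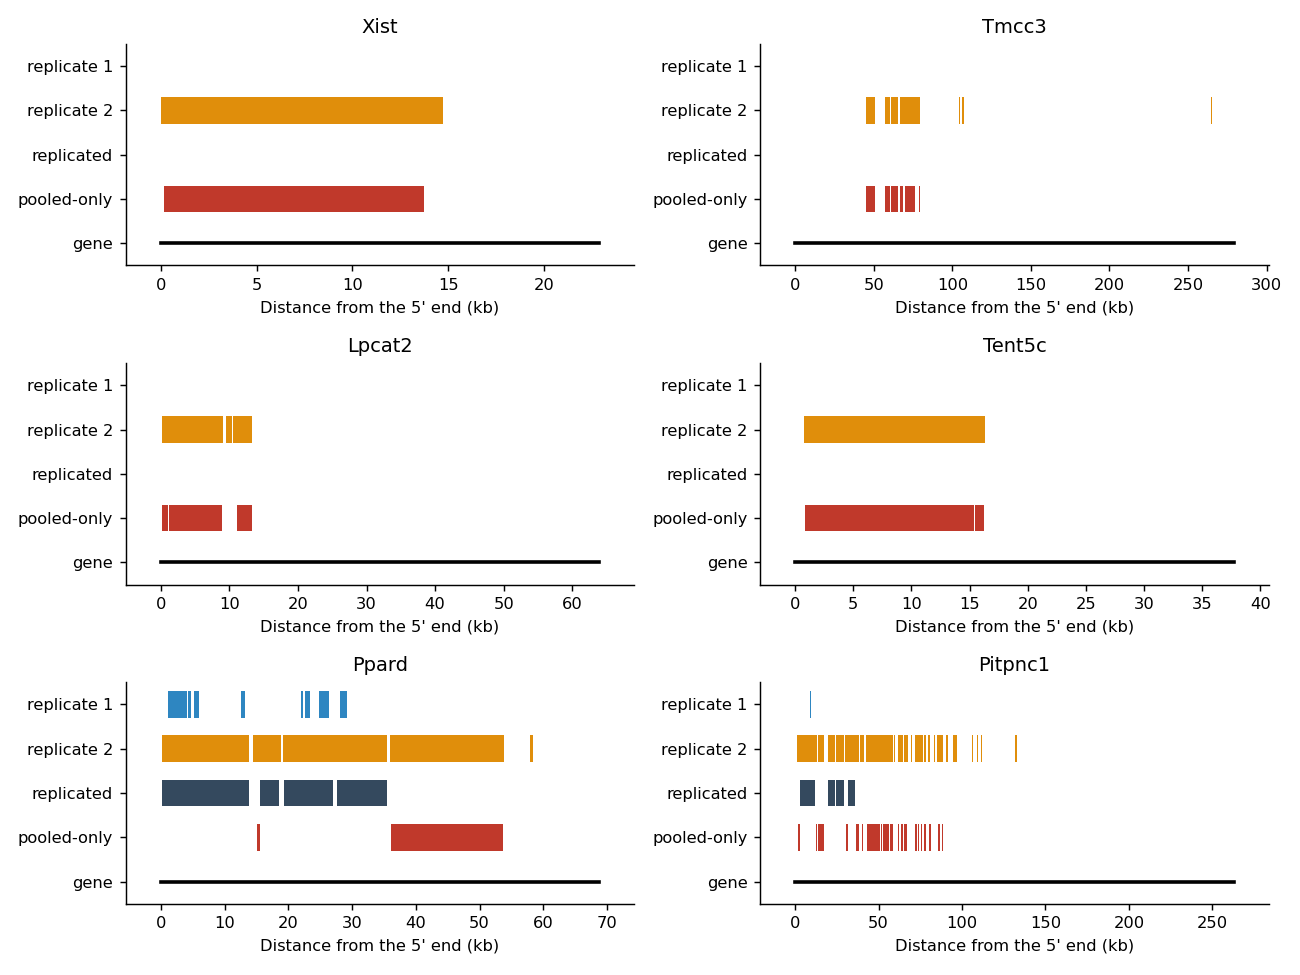
Peaks of replicate 1 (blue), replicate 2 (orange), the replicated list (dark) and pooled-only peaks (red) over 6 genes (black line), by distance from the 5′ end in kb. Replicate 1's row is empty for Xist, Tmcc3, Lpcat2 and Tent5c. In Ppard the wide pooled-only peak follows the replicated peaks and holds an annotated internal transcript start, which is not drawn.

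A few pooled-only peaks ran the other way. The pair farthest from any replicated peak, at 3673524 and 3670116 bp, lay in Pcdh7, a protocadherin gene. They were 974 and 580 bp wide, with folds of 2.654 and 3.268. Replicate 1's list held 100% and 95.86% of their bases and replicate 2's 0%, and over the whole gene the lists held 4796 and 0 bp. Peaks at Flrt2, Tanc1 and Rasgrp3 were likewise in replicate 1 alone. A single pooled-only peak was at least 50 kb from every annotated gene. It lay at chr13:111936562-111939868, was 3307 bp wide with a fold of 3.632, and was wholly in replicate 2's list.

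To find genes that only these peaks reach, a gene was called reached where a list covered 200 bp or more of its first part, which runs 3 kb downstream from the outermost 5′ end (less in shorter genes) and is called its window. The replicated list reached 6658 of 21755 coding genes (30.6%). A further 874 were reached by pooled-only peaks and not by the replicated list, which is 4.02% of all coding genes and 5.79% of the 15097 that the replicated list did not reach. These 874 are again chosen by the calls and are described with no test. In 762 no base of the whole gene was under the replicated list, and in 112 there were replicated bases further in. Of the 874, 288 overlap another coding gene, so the gene to which the mark belongs cannot be told apart there, and 37 are on X.

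In the windows of the 874 genes, pooled-only peaks covered 201 to 3000 bp, with a median of 1073 bp. Replicate 2's list covered a median of 1450 bp and at least 200 bp in 863 genes. Replicate 1's list covered 0 bp in 869 genes, and at most 688 bp in the other 5, with 1 gene at 200 bp or more. Over whole genes replicate 1's list had a base in 70. The genes were of intermediate length, with a median of 18350 bp against 24420 bp for those reached by the replicated list and 13940 bp for those reached by neither. A coding gene on the other strand started within 1 kb, in the divergent direction, in 105 (12.01%) against 6.84% of all coding genes. In 61 (6.98%, against 3.81% of all coding genes) that divergent gene was itself reached by the replicated list.

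The 10 genes with the most pooled-only bases were between 38073 bp (Cmklr1) and 269184 bp (Tcf12) long. Pitpnc1, a phosphatidylinositol transfer protein gene, had 32601 bp under pooled-only peaks, 330 bp under replicate 1's list and 76682 bp under replicate 2's. Tbc1d8, a Rab GTPase-activating protein gene, had 32358 bp, with 0 bp in replicate 1 and 46544 bp in replicate 2. For Chd7, a chromatin remodeller gene, the values were 29121, 0 and 52757 bp. Cmklr1 (21328 bp), Inpp5a (20014 bp), Rffl (19164 bp), Peli2 (18905 bp), Mthfs (18639 bp) and Slc25a12 (18293 bp) also had 0 bp in replicate 1, with 22168 to 33890 bp in replicate 2. Tcf12, an E-protein factor gene with 18445 bp, differed. It was covered in replicate 1 (14799 bp), replicate 2 (78608 bp) and the replicated list (55130 bp). In its window, replicate 1's list held 0 bp, the replicated list 42 bp and replicate 2's 1775 bp. Tbc1d8, Inpp5a, Rffl and Mthfs overlap another coding gene.

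By fold in the window, the first of the 874 genes were Lpcat2, 1600014C10Rik and Ms4a4c, whose peaks are given above. Next came C1qa, which encodes a chain of complement C1q, with 9.286. All 2887 bp of C1qa lay under pooled-only peaks and under replicate 2's list, and 0 bp under replicate 1's. Clec4a1, a C-type lectin receptor gene, had 9.214, Csf3r, the granulocyte colony-stimulating factor receptor gene, 9.13, and Adgre5, which encodes the adhesion receptor CD97, 8.879. Abi3 and Gngt2 share 1 peak of fold 9.007 and overlap each other, and Tent5c had 8.962. Lpcat2 and Adgre5 each overlap another coding gene as well. Replicate 1's list held 0 bp in each of these 10 genes, and replicate 2's held between 2887 bp (C1qa) and 15608 bp (Tent5c). The next folds were those of Zbp1 (8.795), Mxd1 (8.544), Fgl2 (8.292), the vascular growth factor gene Vegfa (8.125), Cd83 (7.957) and the matrix glycoprotein gene Thbs1 (7.957).

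**Figure D4:**
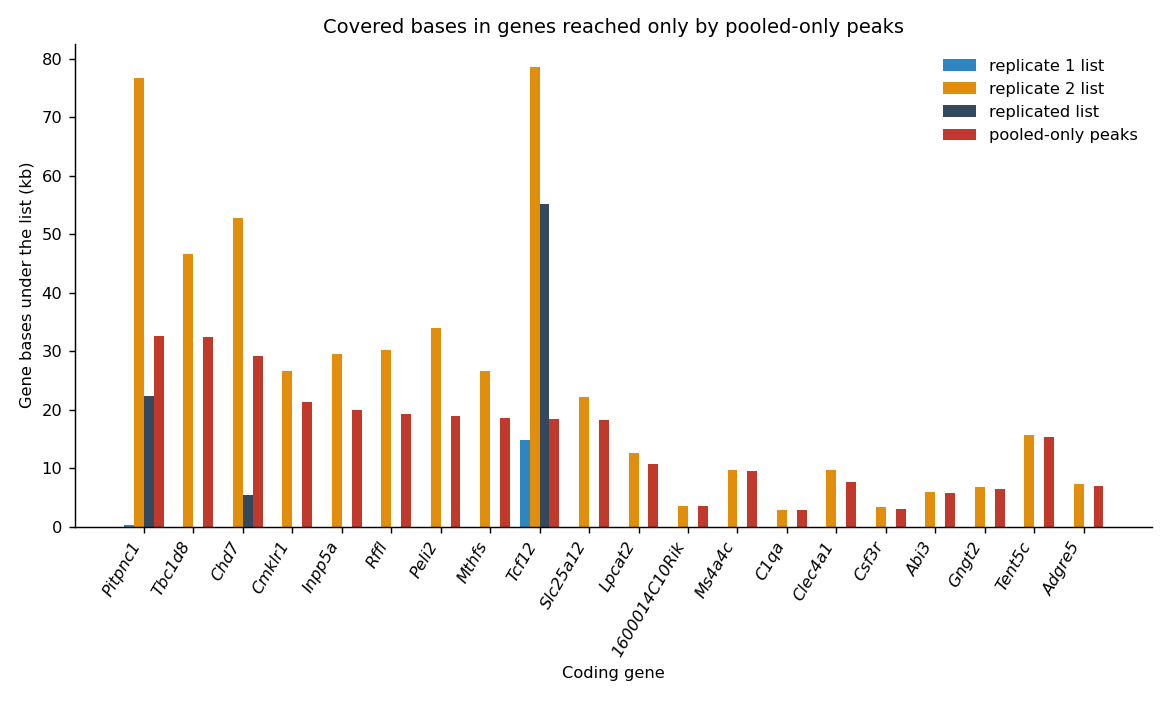
Gene bases in kb under replicate 1's list (blue), replicate 2's list (orange), the replicated list (dark) and pooled-only peaks (red), for the 10 genes reached only by pooled-only peaks with the most covered bases and the 10 with the highest fold. Replicate 1 covers bases in Pitpnc1 and Tcf12; the other genes shown have 0 bp.

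The functions of these genes were counted over 52 gene lists, chosen with earlier results of these data known, so that no list's count is independent evidence and none was tested. For each list the number reached only here is set beside the 5.79% of all coding genes that the replicated list did not reach. That base includes genes foreign to macrophages, such as 1135 olfactory and 331 vomeronasal receptor genes, of which 0 were reached. A share above it therefore does not set a list apart from other genes in use in macrophages.

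Interferon-stimulated genes, which are switched on by interferons and encode antiviral proteins, had the highest share. The replicated list reached 57 of 83, and pooled-only peaks reached 18 of the remaining 26 (69.2%). Replicate 1's list on its own reached 52 of the 83 and replicate 2's 75. Among the 18 were Irf7, the factor that amplifies interferon output, and Zbp1, a sensor of Z-form nucleic acid. Irf7 had 3157 of its 3776 bp under pooled-only peaks, 0 bp in replicate 1 and 3245 bp in replicate 2, with a fold of 7.874; it overlaps another coding gene. Zbp1 had 3860 bp, 0 bp and 4382 bp. Ms4a4c had 9436 bp, 0 bp and 9595 bp, Ifi213, of the DNA-sensing Ifi200 family, 10627, 0 and 12709 bp, and Phf11b 6028, 0 and 7273 bp. The windows of all 18 had 0 bp in replicate 1's list and between 1076 bp (Gbp2) and 3000 bp in replicate 2's. Over whole genes, replicate 1 had bases in Ifit2 (1409 bp) and Gbp9 (308 bp), where the replicated list also had bases.

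The other interferon-stimulated genes reached only here were Ifi205, Ifi44, Ifit3b, Iigp1, Isg20, Slfn1 and the guanylate-binding protein genes Gbp2, Gbp3, Gbp4, Gbp6 and Gbp7, with window folds of 3.234 (Gbp4) to 6.016 (Gbp6). Several belong to clusters of near-identical copies (Gbp, Ifi200, Ifit, Slfn and Ms4a4 genes), with the handling of reads that match several copies not given in the sources used here, so the gene assigned is uncertain. Gbp4 and Gbp9 overlap and share the same 2190 bp of window.

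Because the interferon-stimulated genes had the highest share, their promoters were searched for the core of the interferon-stimulated response element, GAAANNGAAA, on both strands of the RefSeq window from 250 bases before to 50 after the start (GRCm38.p6). Overlapping matches were counted. A window was found for 13 of the 18 genes, and 7 held a match. These 7 are printed as 100 bases on the gene's strand around the first match, with the matches in capitals; the window of Ifi205 holds a second match that lies outside its stretch (GAAA blocks read TTTC where the match is on the other strand).
Ifi213 (chr1:173599291-173599390, minus strand): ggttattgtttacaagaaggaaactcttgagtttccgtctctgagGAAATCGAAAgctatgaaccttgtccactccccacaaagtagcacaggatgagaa
Phf11b (chr14:59341326-59341425, minus strand): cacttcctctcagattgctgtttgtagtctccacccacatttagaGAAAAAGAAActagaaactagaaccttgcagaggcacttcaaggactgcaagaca
Ifi205 (chr1:174031835-174031934, minus strand): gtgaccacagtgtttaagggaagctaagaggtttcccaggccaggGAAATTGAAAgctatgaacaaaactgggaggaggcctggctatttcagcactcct
Gbp2 (chr3:142620559-142620658, plus strand): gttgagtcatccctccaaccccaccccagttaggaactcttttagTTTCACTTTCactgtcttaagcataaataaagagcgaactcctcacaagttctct
Gbp3 (chr3:142559954-142560053, plus strand): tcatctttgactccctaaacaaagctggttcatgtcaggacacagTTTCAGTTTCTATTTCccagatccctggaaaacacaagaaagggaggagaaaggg
Ifit3b (chr19:34607724-34607823, plus strand): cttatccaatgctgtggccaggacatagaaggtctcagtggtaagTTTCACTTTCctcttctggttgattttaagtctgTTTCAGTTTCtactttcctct
Gbp7 (chr3:142530238-142530337, plus strand): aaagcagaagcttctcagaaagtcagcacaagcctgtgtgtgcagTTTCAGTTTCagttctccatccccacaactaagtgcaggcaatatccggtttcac
The share with a match was 25 of 47 for interferon-stimulated genes that the replicated list reached and 4 of 7 for those reached by neither, which is 53.2% and 57.1% beside 53.8% for those reached only here. Of all coding genes with a window, 573 of 16450 (3.48%) held a match, as did 35 of 691 (5.07%) of all genes reached only here. A match is a description of these letters and not of a bound site.

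Genes of NF-kB and Toll-like receptor signalling, which relay microbial signals to inflammatory genes, followed with 6 of the 10 not reached by the replicated list, which reached 30 of 40. They were Traf5, Bcl3, Tab3, Irak1, Nfkbie and Relb. Bcl3, an atypical IkB protein gene, had 5507 bp under pooled-only peaks, 0 bp in replicate 1 and 7013 bp in replicate 2. Traf5, an adaptor gene, had 8804, 0 and 11428 bp, and Tab3, an adaptor gene of the kinase TAK1 on X, 2039, 0 and 5036 bp. Genes of antigen presentation numbered 7 of 23 (30.4%): Cd86, Cd40, H2-K1, H2-T22, H2-DMb1, Tap2 and Psmb10. H2-K1, a classical MHC class I gene, had 2414 bp, 0 bp and 2667 bp with a fold of 7.706, and the costimulator gene Cd86 4793, 0 and 9396 bp. MHC class I genes are near-identical to each other, and the same uncertainty holds for them.

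Macrophage identity genes added 3 of 9 not reached (C1qa, Lgals3 and Cx3cr1), and pattern recognition receptors 2 of 8 (Nod1 and Clec4n). Nod1, a sensor gene for bacterial peptidoglycan, had 17689 bp under pooled-only peaks, 0 bp in replicate 1 and 24567 bp in replicate 2. Lgals3, the galectin-3 gene, and Cx3cr1, the fractalkine receptor gene, were marked elsewhere by other lists. Replicate 1 covered 10982 bp of Lgals3 and the replicated list 11244 bp, with 0 bp of either in its window. In Cx3cr1, which overlaps 5 other coding genes, these were 3648 and 11719 bp, again with 0 bp in the window, where pooled-only peaks covered 555 bp. Apoe, which encodes the lipid carrier apolipoprotein E, had 2800 of 3080 bp under pooled-only peaks, 0 bp in replicate 1 and all 3080 bp in replicate 2. Of secondary inflammatory response genes, 2 of 18 not reached by the replicated list (11.1%) were reached only here, and of primary ones 1 of 17 (5.88%), Dusp2, which is near the 5.79% of all unreached genes. The 2 secondary genes, the interleukin genes Il10 and Il27, had 744 and 587 bp under pooled-only peaks, 0 bp each in replicate 1 and 840 and 1296 bp in replicate 2, and Il27 overlaps another coding gene.

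Housekeeping lists were reached as well. Mitochondrial ribosomal protein genes added 8 of 18 (44.4%), among them Mrpl42 (1597 bp), Mrpl37 (1442 bp) and Mrpl58 (1242 bp), each with 0 bp in replicate 1. RNA polymerase II and Mediator added 5 of 11 (45.5%), all of them subunit genes of Mediator, the complex that links activators to the polymerase: Med30, Med27, Med24, Med12 and Med16, with 334 to 1492 bp. Autophagy genes added 5 of 10, namely Optn, Ulk1, Atg4a, Atg16l2 and Atg2a, with 1362 to 5840 bp, where Ulk1 encodes the kinase that starts autophagosome formation and Atg16l2 overlaps another coding gene. DNA repair added 8 of 35, among them Xrcc4 and Ercc5, and zinc finger Zfp genes 39 of 246 (15.9%), led by Zfp1 with 10225 bp. Of the list of H3K79 methylation and elongation, Hexim1, whose product inhibits the elongation kinase P-TEFb, and Mllt6 were reached only here.

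In other lists the number reached only here was 0. These included macrophage transcription factors, lysosome, glycolysis, tricarboxylic acid cycle, cytosolic ribosomal protein, DNA replication and heat shock genes, of which the replicated list had reached between 74.2% and 95.2%. Each of these lists had from 4 to 10 genes left to reach, so a count of 0 is not apart from the 5.79% of all unreached genes. Of lists of genes foreign to macrophages, olfactory receptors (0 of 1135), vomeronasal receptors (0 of 331) and Hox genes (0 of 39) also had 0. The lists of T and NK, B, dendritic, erythroid, fibroblast, neuronal, and liver and muscle genes had 0 too. Each of these cell and tissue lists had from 14 to 26 genes left to reach. A count of 0 there, or among 39 Hox genes, is not apart from the 5.79% of all unreached genes. Replication-dependent histone genes had 0 of 63. Csf3r in the neutrophil list (1 of 19), Pcdh7 (protocadherins, 1 of 69) and Krtcap2 (1 of 113) were reached only here. Krtcap2 is not a keratin gene but was taken by the name pattern for keratins. Solute carriers (12 of 265, 4.53%) lay near the 5.79% of all unreached genes.

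**Figure D5:**
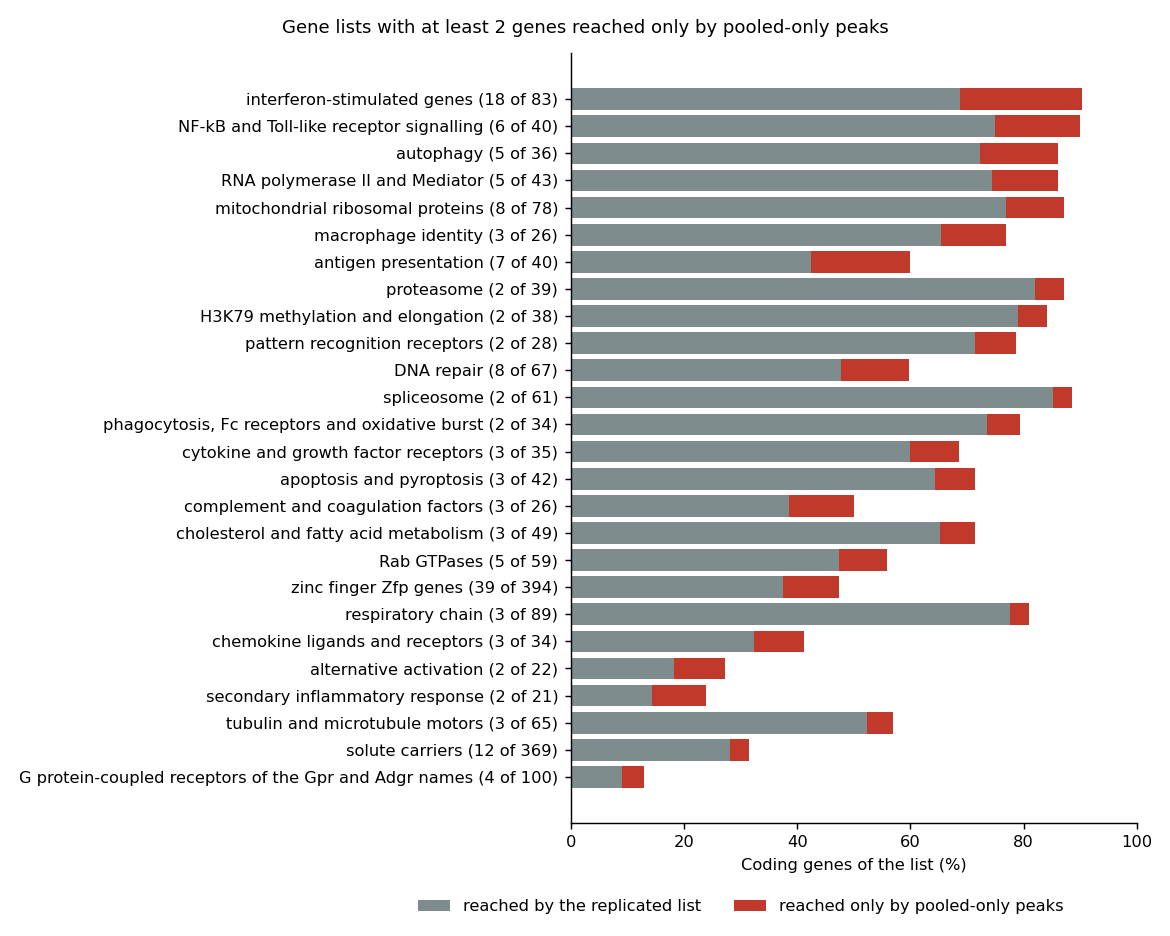
Percent of the coding genes of each list reached by the replicated list (grey) and only by pooled-only peaks (red), for lists with at least 2 of the latter, ordered by their share of the genes that the replicated list did not reach. In brackets, genes reached only by pooled-only peaks of all in the list: 18 of 83 for interferon-stimulated genes.

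The 5′ ends of the 874 genes were between the other classes in CpG content. A start counted as CpG-rich if, over 500 bp to each side, GC content reached 50% and the observed CpG count 0.6 of the expected one. This held for 552 (63.2%), against 79.1% of genes reached by the replicated list, 27.6% of those reached by neither and 44.8% of all coding genes. The 322 CpG-poor starts, of the kind shown for 1600014C10Rik and Ms4a4c, had a median fold in the window of 3.519 against 3.352 for the CpG-rich starts, of the kind shown for Tent5c and Mxd1. A fold of at least 6 was found at 33 of the CpG-poor (10.3%) and 19 of the CpG-rich starts (3.44%), and 18 of the 30 highest folds belonged to CpG-poor starts. Over the peaks themselves the median GC content was 44.9%, against 43.8% for the other pooled peaks, and the median observed to expected CpG was 0.198 against 0.223.

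Noncoding genes reached only here by the same rule numbered 44 of 5305 lincRNA genes (0.829%), 75 of 2958 antisense genes (2.535%) and 25 of 788 processed transcripts (3.17%). The annotation class TEC had 55 of 3210 (1.71%). Each share is below the 4.02% of all coding genes. The replicated list reached 139, 319, 99 and 366 genes of these 4 classes. Of the 44 lincRNA genes, 31 lay outside coding genes. Besides Xist and Gm13710 (7832 bp under pooled-only peaks), Gm13391 had 4298 bp with a fold of 6.199. Replicate 1's list held 0 bp in all of these named genes, and replicate 2's held 11394 bp in Gm13710 and 4542 bp in Gm13391. Antisense genes overlap coding genes almost throughout, with 5 of the 75 outside them, and peaks carry no strand, so their signal cannot be told apart from that of the coding gene.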

How the data were processed

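H3K79me2 ChIP-seq of 2 replicates of unstimulated macrophages (1 group) was analysed from 4 deposited peak lists on mm10: replicate 1, replicate 2, pooled alignments, and a replicated list from both. The list from pooled alignments was deposited as pseudoreplicated peaks. The sources used here name no aligner, peak caller or threshold, nor the rules of the pseudoreplicated and replicated lists. The deposited score, a display value of at most 1000, was not used. The authors' fold (a ratio over the control) and the authors' deposited −log10 q were used only to describe and rank peaks within a list; their −log10 p was not used. Depth is unknown, and signal tracks were not used here.

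Peaks were set against GENCODE M21 (21755 coding genes on chromosomes 1 to 19 and X) with Python 3.11.15, numpy 2.4.6 and pandas 2.3.3. A gene was reached with at least 200 bp of its first 3 kb under a list. Sequences are from RefSeq GRCm38.p6, where 2000 of 2000 promoter windows compared were identical to the genome, and 16450 coding genes matched a window by symbol. Interval code was checked against counts of single bases on simulated data.

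The peaks, gene lists and rules were chosen with earlier results of these data known. No test was made: there is 1 group, and the peaks were selected on their calls. Named were the 10 peaks of highest fold and the 10 widest, the nearest and farthest peaks, the 10 genes reached only here with most covered bases and the 10 of highest fold, up to 3 genes per list and every gene where a list had 5 or fewer. Not every gene taken by this rule is reported. Other genes named were chosen after their values were seen. Clec7a, Mx2, Cxcl11 and Trac were dropped from their lists, being noncoding there.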

Additional observations from a re-analysis of the deposited data

Results flagged for a closer look

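Chromosome Y lies outside the chromosomes described, and peaks there are given because no comparison uses them and there is no control sample to set them against. Replicate 1's list held 19 peaks on Y over 26102 bp, replicate 2's 1 over 424 bp and the pooled list 6 over 5368 bp, while the replicated list held 0. None of the 6 pooled peaks on Y shares a base with a replicated peak, so they would belong with the pooled-only peaks if Y were counted. The sex of the animals is not recorded in the labels, and how these peaks relate to the Xist peak of replicate 2 was not tested.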

How the results depend on the processing

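No paired analysis was possible because the 2 replicates form 1 group and no result comes from a test. Nearly all of the peaks and of their genes had bases in replicate 2's list, as given above. When pooled-only peaks were replaced by the peaks of 1 replicate's list that share no base with the replicated list, leaving out replicate 2 or replicate 1 gave 135 to 16418 peaks (11630 in the description), a median width of 448 to 774 bp, 88.89 to 94.16% with a base in a coding gene, 7.407 to 11.48% in its first 3 kb, 3 to 1165 genes reached only here and 63.26 to 66.67% with a CpG-rich start. Interferon-stimulated genes reached only here numbered 0 without replicate 2 and 18 without replicate 1. Neither alternative leaves a replicate out in full, because the replicated list, made from both, was kept. In replicate 1's list 22825 of 22960 peaks shared a base with it. Few were left for that reason, so the low values without replicate 2 follow from the rule. Of the 874 genes, 861 (98.5%) were among the 1165 of replicate 2, of which they are 73.9%.

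Requiring 1 kb to the nearest replicated peak left 7431 peaks, with 13.11% in the first 3 kb. Keeping peaks at or above the median fold left 6266, with a median width of 1060 bp, 94.06% in coding genes, 15.13% in the first 3 kb and 99.41% with a base in replicate 2's list. That last share was 98.2% for peaks of at least 500 bp. Requiring 1000 bp of the window gave 514 genes, and the cause of these shifts was not tested. Every other alternative tried left counts within 1.5 times the described value and shares within its exact binomial 95% interval. That interval takes peaks or genes as independent, which peaks of the same gene are not, so it served as a yardstick and not as a test. The median width moved by less than the SD between 448 and 774 bp, the values from the 2 replicates, which is a wide limit. The alternative based on the share of a peak's bases under the replicated list could change nothing, because no pooled peak overlapped that list in part. The autosomes-only alternative was chosen after the data were seen. Because depth is unknown and signal tracks were not used here, a region without the mark in replicate 1 and one with a signal under its threshold cannot be told apart from these peak lists.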
